A study of Oryzias latipes with 8 samples.

Results

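A set of 10 genes of the red blood cell programme, 6 globins and 4 other erythroid genes, was followed through sorted cells of the medaka optic tectum, the visual centre of the fish midbrain. They were taken by name from the authors' sheets of changed genes: every identifier named GB, GB-ALPHA1 or GB-BETA4, and the genes HBZ, ALAS2, cahz, slc4a1a and GATA-1. These names gave 10 of the 16957 genes with counts in all 8 libraries. The genes were chosen from measured values, since a gene had a name only where the authors had listed it as changed. All 10 stood on 2 of the 8 sheets, the genes lower in wdr12 GFP+ than in wdr12 GFP- cells and those higher in wdr12 GFP- than in ebf3 GFP+ cells. None stood on a sheet comparing wdr12 GFP+ with ebf3 GFP+ cells. The title of the sheet of genes lower in wdr12 GFP+ cells in that comparison reads ebf3 GFP-, and was taken to mean ebf3 GFP+.

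RNA was sequenced from medaka (Oryzias latipes) of 1 month of age. The wdr12 GFP-positive (GFP+) cells (n = 3 libraries) came from the transgenic line Wdr12:GFP, in which the promoter of wdr12, a ribosome biogenesis factor of neuroepithelial cells, drives GFP. The wdr12 GFP-negative (GFP-) cells (n = 2) came from the same line; the submitters' description places progenitors, neurons and glia among them and does not mention blood cells. The ebf3 GFP+ cells (n = 3) came from the line ebf3:GFP, which labels differentiated neurons and progenitors that no longer divide. Tecta were pooled and dissociated, and the protocol names no step that removes blood. The GFP- cells of the ebf3:GFP line are not among the libraries, so line and GFP status cannot be told apart between wdr12 GFP- and ebf3 GFP+ cells.

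Red blood cells of fish keep their nucleus, so they carry nuclear and cytoplasmic RNA in the circulation. Most of their messenger RNA encodes globins, the alpha-type and beta-type chains that form haemoglobin around haem. Haem synthesis in the red cell lineage begins with the enzyme ALAS2, and the transcription factor GATA-1 switches on globin, haem and membrane protein genes together. The brain is densely supplied with blood vessels.

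The libraries held 8511255 to 11580629 counts in wdr12 GFP+ cells, 3497101 and 5798458 in wdr12 GFP- cells and 5247836 to 7708019 in ebf3 GFP+ cells. Each gene whose promoter drives GFP was highest in its own sort. For wdr12 the levels were 50.6 to 99.3 CPM (counts per 1000000 counts of a library) in wdr12 GFP+ cells, 21.5 to 25.7 CPM in wdr12 GFP- cells and 18.5 to 26.6 CPM in ebf3 GFP+ cells. For ebf3 they were 236 to 493 CPM in wdr12 GFP+ cells, 656 to 662 CPM in wdr12 GFP- cells and 2257 to 2723 CPM in ebf3 GFP+ cells. Nothing in the labels says whether replicates came from separate pools of fish, so the p-values measure only the spread between these libraries. All levels are CPM scaled by TMM factors and are not divided by gene length, so they compare libraries and not genes.

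Globin RNA filled a large share of both wdr12 GFP- libraries and very little of the other 6. The 6 globin genes together held 4.27% of all counts in wdr12 GFP- replicate 1 (exact 95% interval 4.25 to 4.30) and 15.7% in replicate 2 (15.65 to 15.71). In wdr12 GFP+ replicates 1, 2 and 3 the share was 0.0115%, 0.0513% and 0.0844%. In ebf3 GFP+ replicates 1, 2 and 3 it was 0.0504%, 0.0383% and 0.117%. The lower wdr12 GFP- library was therefore 36.5 times the highest of the other 6, in which the share itself varied 10.2 times. The intervals cover counting error only, and the spread between replicates was far wider than they were. Group means were 0.0491% ± 0.0365 in wdr12 GFP+ cells (SD, n = 3), 9.98% ± 8.07 in wdr12 GFP- cells (n = 2) and 0.0686% ± 0.0424 in ebf3 GFP+ cells (n = 3). In bulk samples such as these, fewer red cells and less red cell RNA per cell cannot be told apart.

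**Figure D1:**
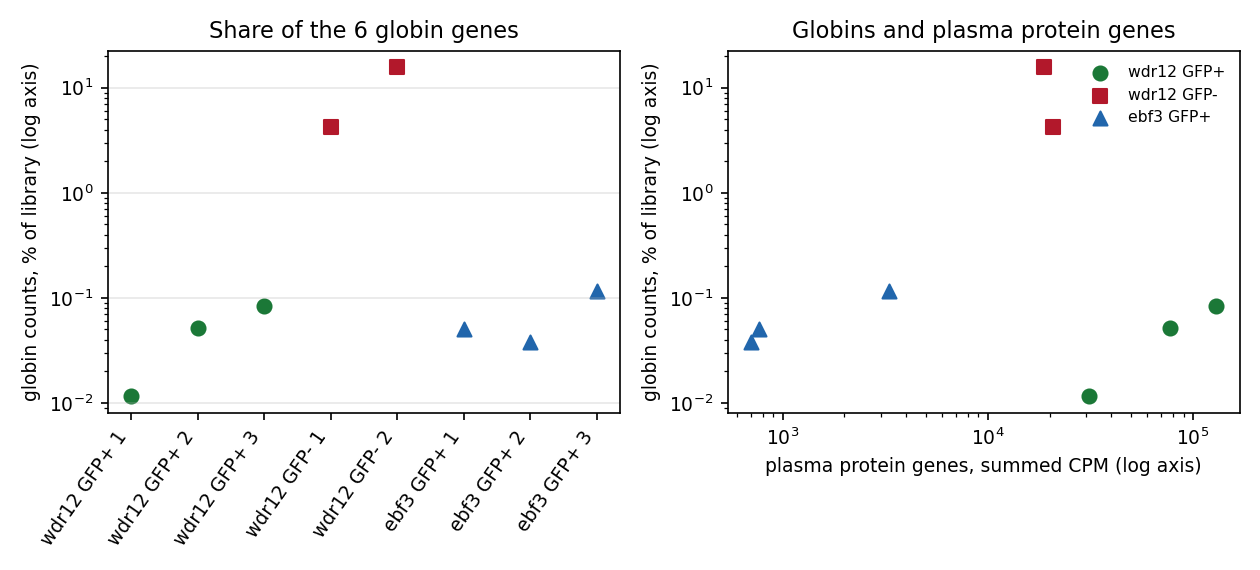
Counts of the 6 globin genes as a percentage of all counts of a library (log axis), for each library at left and against the summed level of 9 plasma protein genes in CPM (log axis) at right. Each point is 1 library; the 2 wdr12 GFP- libraries lie at 4.27% and 15.7%, and the other 6 between 0.0115% and 0.117%.

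The globins come first among the 10 genes. The names GB and GB-ALPHA1 each belong to 2 genes, GB-BETA4 and HBZ to 1; HBZ is the name of an embryonic alpha-type chain in mammals, and the name GB does not say which chain is meant. Fish globin genes lie in clusters of close copies and reads were 50 bases long, so the values of single globins are uncertain. The 2 GB genes and the 2 GB-ALPHA1 genes are told apart below by their counts, since in every library ENSORLG00000003020 held more than ENSORLG00000003046, and ENSORLG00000005210 more than ENSORLG00000005297.

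The higher-count GB gene, ENSORLG00000003020, held more counts than any other gene in both wdr12 GFP- libraries. It stood at 68.2, 262 and 496 CPM in wdr12 GFP+ replicates 1, 2 and 3, at 13904.5 and 74199.9 CPM in wdr12 GFP- replicates 1 and 2, and at 223, 191 and 562 CPM in ebf3 GFP+ replicates 1, 2 and 3. Both wdr12 GFP- libraries were above all others, and the ranges of the other 2 groups overlapped. The lower-count GB gene, ENSORLG00000003046, came second in both wdr12 GFP- libraries, with 11981 and 57243 CPM. Its levels were 51.0, 143 and 344 CPM in wdr12 GFP+ cells and 136, 112 and 242 CPM in ebf3 GFP+ cells.

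Among the alpha-type genes, the higher-count GB-ALPHA1 gene, ENSORLG00000005210, had 21.999, 90.8 and 170 CPM in wdr12 GFP+ cells, 6099 and 23791 CPM in wdr12 GFP- cells and 125, 76.2 and 207 CPM in ebf3 GFP+ cells. It took the 8th and the 3rd place by count in the wdr12 GFP- libraries. The lower-count GB-ALPHA1 gene, ENSORLG00000005297, had 3.03, 5.31 and 15.6 CPM in wdr12 GFP+ cells, 449 and 663 CPM in wdr12 GFP- cells and 8.27, 14.2 and 7.16 CPM in ebf3 GFP+ cells. Its 2 wdr12 GFP- libraries lay closer together than those of any other of the 10 genes.

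GB-BETA4 (ENSORLG00000005230) and HBZ (ENSORLG00000002990) were minor globins by count. GB-BETA4 had 0.325, 1.38 and 0.129 CPM in wdr12 GFP+ cells, 41.6 and 191 CPM in wdr12 GFP- cells and 1.24, 1.20 and 4.99 CPM in ebf3 GFP+ cells. HBZ had 0, 1.96 and 1.67 CPM in wdr12 GFP+ cells, 47.2 and 81.9 CPM in wdr12 GFP- cells and 1.52, 0.134 and 0.333 CPM in ebf3 GFP+ cells. Outside wdr12 GFP- cells the counts of these genes were few, 1 to 30 for GB-BETA4 and 0 to 17 for HBZ. The count of 0 for HBZ in wdr12 GFP+ replicate 1 allows up to 3 counts, which is 0.325 CPM.

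ALAS2 (ENSORLG00000004707) makes the first intermediate of haem in the red cell lineage. It had 3.90, 9.69 and 11.3 CPM in wdr12 GFP+ cells, 369 and 1894 CPM in wdr12 GFP- cells and 4.27, 4.55 and 11.3 CPM in ebf3 GFP+ cells. The carbonic anhydrase cahz (ENSORLG00000008342), which in zebrafish is the red cell enzyme that interconverts carbon dioxide and bicarbonate, had 3.68, 3.81 and 12.995 CPM in wdr12 GFP+ cells, 382 and 1958 CPM in wdr12 GFP- cells and 5.65, 10.2 and 11.5 CPM in ebf3 GFP+ cells. In both genes the lower wdr12 GFP- library exceeded the highest of the other 6 libraries, by 32.6 times for ALAS2 and 29.4 times for cahz.

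slc4a1a (ENSORLG00000002557) encodes the band 3 anion exchanger of the red cell membrane. Its levels were 1.84, 5.88 and 1.42 CPM in wdr12 GFP+ cells, 60.3 and 276 CPM in wdr12 GFP- cells and 2.76, 4.68 and 6.82 CPM in ebf3 GFP+ cells. GATA-1 (ENSORLG00000013980), the regulator of the lineage, had 0.650, 2.65 and 1.801 CPM in wdr12 GFP+ cells, 73.5 and 177 CPM in wdr12 GFP- cells and 2.07, 0.535 and 4.33 CPM in ebf3 GFP+ cells. Both genes were present in all 8 libraries, with 4 to 51 counts in each library of the 2 GFP+ sorts.

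**Figure D2:**
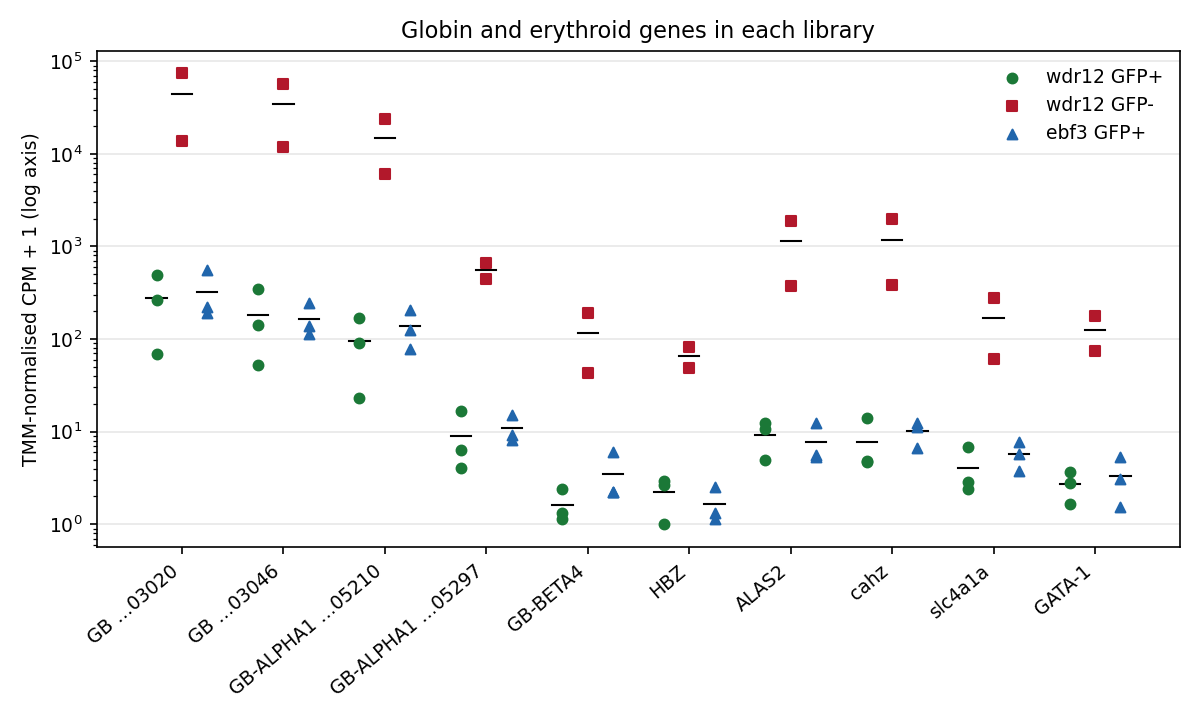
TMM-normalised CPM plus 1 (log axis) of the 10 globin and erythroid genes in each library; each symbol is 1 library and each bar the mean of a group. For every gene both wdr12 GFP- libraries lie above the other 6, whose 2 groups overlap.

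Both wdr12 GFP- libraries stood above all 6 others for 10 of the 10 genes. Of all 15640 genes tested, 10.2% had that order. A stricter order, the lower wdr12 GFP- library over 10 times the highest of the other 6, was met by 14 genes, 0.0895% of those tested. Of these 14 genes 8 were globin or erythroid genes of the set. The 2 that missed it were GB-BETA4, at 8.32 times, and slc4a1a, at 8.83 times. The other 6 of the 14, singled out after their values were seen, were chp2 at 35.8 times, nmt1b at 15.99 times, RTP5 at 15.5 times, plac8l1 at 12.96 times, nt5c2l1 at 10.8 times and the gene ENSORLG00000013113, for which the sheets give no symbol, at 40.3 times. The names of the 10 genes came from the lists of this very contrast, so these counts describe them and support nothing.

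All 10 genes were lower in wdr12 GFP+ than in wdr12 GFP- cells, the contrast that chose them, without overlap between libraries, as were 24.5% of all genes tested, and nothing is read from it. The log2 fold changes ran between -7.59 ± 0.81 (SE) for the lower-count GB gene and -5.74 ± 0.85 for HBZ, which is 193-fold and 53.3-fold lower in wdr12 GFP+ cells. The median of the 10 was -7.20, and that of all genes tested was 0.05. The higher-count GB gene lay at -7.32 ± 0.86, the higher-count GB-ALPHA1 gene at -7.31 ± 0.80, the lower-count GB-ALPHA1 gene at -6.13 ± 0.57 and GB-BETA4 at -7.52 ± 0.84. The non-globin genes covered the same range, with cahz at -7.43 ± 0.72, ALAS2 at -7.09 ± 0.69, GATA-1 at -6.20 ± 0.67 and slc4a1a at -5.77 ± 0.67.

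The comparison of wdr12 GFP- with ebf3 GFP+ cells shares the wdr12 GFP- libraries with the contrast above, and all 10 genes were on the authors' list for it too. Without overlap all 10 were higher in wdr12 GFP- cells, as were 21.9% of all genes tested, and edgeR's quasi-likelihood test called all 10 higher, against 3.16% of all genes, and nothing is read from either count. Their log2 fold changes had a median of 6.67, against 0.02 over all genes tested. They ran from 5.15 ± 0.65 for slc4a1a to 7.73 ± 0.81 for the lower-count GB gene, 35.5-fold and 212-fold. Without wdr12 GFP- replicate 2 the call of GB-BETA4 was lost and 9 were called; its log2 fold change was then 4.08, in a fit where the lone wdr12 GFP- library was assumed to vary like the other groups.

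The remaining comparison, wdr12 GFP+ against ebf3 GFP+ cells, set the 2 GFP-sorted populations against each other, and the authors' lists for it held none of the 10 genes. It shares its wdr12 GFP+ libraries with the contrast that chose the genes. Its 2 sorts came from different transgenic lines, so line and sorted population cannot be told apart here either. In edgeR's quasi-likelihood test 0 of 10 genes were called at an adjusted p under 0.05, where 23.5% of all genes tested were called in either direction. The authors' lists came from the same counts, so this outcome could be foreseen and nothing is read from the count. At an unadjusted p under 0.05 there was 1 gene, GB-BETA4, and DESeq2 also called 0. None of the 10 separated the 2 sorts without overlap, which 19.9% of all genes did with wdr12 GFP+ cells higher and 17.8% with them lower. The median log2 fold change of the 10 was -0.37, against 0.01 over all genes tested, with 3 above 0 and 7 below.

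The size of a difference that these libraries leave possible was wide. For the higher-count GB gene the log2 fold change was -0.24 with a 95% interval from -1.61 to 1.13 (adjusted p = 0.856), and for the lower-count GB gene 0.13, from -1.14 to 1.41 (adjusted p = 0.919). ALAS2 gave 0.32, from -0.88 to 1.52 (adjusted p = 0.768), cahz -0.42, from -1.64 to 0.80 (adjusted p = 0.689), and GATA-1 -0.41, from -1.77 to 0.95 (adjusted p = 0.729). With intervals of this width, a p above the threshold does not show equal levels. slc4a1a lay at -0.62, from -1.91 to 0.66 (adjusted p = 0.543), HBZ at 0.82, from -1.10 to 2.74 (adjusted p = 0.604), and the higher-count GB-ALPHA1 gene at -0.53, from -1.81 to 0.75 (adjusted p = 0.615).

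GB-BETA4 and the lower-count GB-ALPHA1 gene were the members whose call in this comparison turned on 1 library. GB-BETA4 had a log2 fold change of -1.93 ± 0.82 (95% interval -3.68 to -0.19, adjusted p = 0.109). Its counts in wdr12 GFP+ replicates 1, 2 and 3 were 3, 12 and 1, and without replicate 2 it passed the test at -3.31 ± 1.02 (adjusted p = 0.0333); over all settings tried its adjusted p ran from 0.031 to 0.493. The lower-count GB-ALPHA1 gene lay at -0.32 ± 0.48 (adjusted p = 0.714), and without wdr12 GFP+ replicate 3 it passed at -1.26 ± 0.40 (adjusted p = 0.0315), in a range from 0.0315 to 0.999 over all settings. The authors' deposited table gave GB-BETA4 a log2 fold change of -1.98 and an adjusted p of 0.371, the smallest there among the 10.

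**Figure D3:**
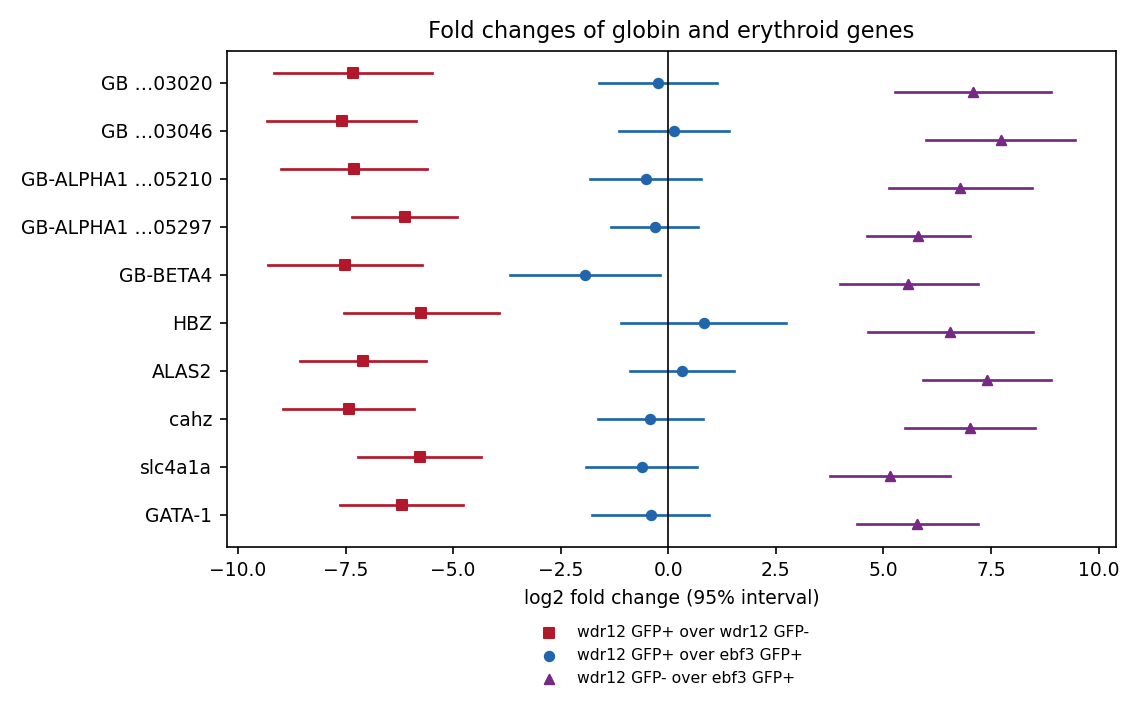
Log2 fold changes of the 10 genes with 95% intervals in the 3 comparisons, the first group named being on top of the ratio. Intervals of wdr12 GFP+ over wdr12 GFP- cells lie far below 0 and those of wdr12 GFP- over ebf3 GFP+ cells far above it, while 9 of the 10 intervals between the 2 GFP+ sorts include 0 and that of GB-BETA4 ends at -0.19.

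The 2 wdr12 GFP- libraries differed from each other for most of the 10 genes. Replicate 2 was above replicate 1 in CPM by 5.34 times for the higher-count GB gene, 4.78 times for the lower-count GB gene, 5.13 times for ALAS2, 5.13 times for cahz, 4.61 times for GB-BETA4, 4.58 times for slc4a1a and 3.90 times for the higher-count GB-ALPHA1 gene. GATA-1, HBZ and the lower-count GB-ALPHA1 gene differed less, by 2.41, 1.74 and 1.48 times. Among 7553 genes with at least 10 CPM in both libraries the median of this ratio was 1.11, and 95% of them lay between 0.608 and 1.93. A ratio above 3 was found for 25 of these genes, 0.331%, and 7 of the 25 were globin or erythroid genes of the set.

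Relative to one another, some of the 10 genes kept their proportions between these libraries and some did not. Per 1000 counts of the lower-count GB gene, ALAS2 had 30.8 counts in wdr12 GFP- replicate 1 and 33.1 in replicate 2, cahz had 31.9 and 34.2, and slc4a1a had 5.03 and 4.82. On the same scale GATA-1 had 6.14 in replicate 1 and 3.10 in replicate 2, HBZ had 3.94 and 1.43, and the lower-count GB-ALPHA1 gene had 37.5 and 11.57. The lower-count GB-ALPHA1 gene made up 1.38% of globin counts in replicate 1 (exact 95% interval 1.32 to 1.44) and 0.424% in replicate 2 (0.411 to 0.438). HBZ made up 0.145% (0.127 to 0.166) and 0.0525% (0.0479 to 0.0574), while GB-BETA4 made up 0.128% (0.110 to 0.147) and 0.123% (0.116 to 0.130). These intervals do not overlap for HBZ and the lower-count GB-ALPHA1 gene and do for GB-BETA4, but they cover counting error in 2 libraries and not a difference between conditions.

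The shares of the 3 most counted globins in the globin counts varied less over the 8 libraries than the globin amount, and those of the minor globins varied widely. The higher-count GB gene took 47.2%, 51.9% and 48.3% of globin counts in wdr12 GFP+ cells, 42.8% and 47.5% in wdr12 GFP- cells and 45.05%, 48.4% and 54.9% in ebf3 GFP+ cells. The lower-count GB gene took 35.3%, 28.3% and 33.5% in wdr12 GFP+ cells, 36.8% and 36.7% in wdr12 GFP- cells and 27.6%, 28.4% and 23.6% in ebf3 GFP+ cells. Over the 8 libraries the higher-count GB-ALPHA1 gene ran from 15.2% to 25.2% of globin counts and the lower-count GB-ALPHA1 gene from 0.424% to 3.59%. The value of 0.424% rested on 3858 counts, in wdr12 GFP- replicate 2. GB-BETA4 ran from 0.0125% to 0.488% and HBZ from 0 to 0.389%, both on few counts outside wdr12 GFP- cells. For each count of the 4 non-globin erythroid genes together there were 14.3, 22.9 and 37.3 globin counts in wdr12 GFP+ cells, 36.8 and 36.3 in wdr12 GFP- cells and 33.6, 19.8 and 30.1 in ebf3 GFP+ cells. The non-globin counts behind these ratios were 93 to 214 per library in wdr12 GFP+ cells.

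Other genes of red cell formation were taken from 6 lists: haem synthesis, haem and iron handling, erythroid transcription factors, red cell membrane and cytoskeleton, red cell enzymes, and erythropoietin signalling with maturation. Only genes on the authors' sheets carry a symbol, so 45 tested genes were found for 181 symbols, the 10 genes above left aside. They were thus found only where the authors had listed them as changed between these same libraries. Among them alas1, HMOX2 (2 of 2), blvrb, tfr1a, klfd, lmo2, gfi1b, KEL and epor stood on the same sheets as the 10 genes. Their calls and adjusted p-values here and below are therefore descriptions and no independent support. In wdr12 GFP+ against wdr12 GFP- cells 9 of the 45 rose, 15 fell and 21 did not pass (median log2 fold change -0.66); of all genes tested 9.92% rose and 9.84% fell, and of the 4658 with a symbol 1394 rose and 1429 fell (median 0.31). In wdr12 GFP+ against ebf3 GFP+ cells 14 rose, 9 fell and 22 did not pass (median 0.35); of all genes 12.7% rose and 10.8% fell, and of those with a symbol 1766 and 1483 (median 0.28). In wdr12 GFP- against ebf3 GFP+ cells 13 rose, 2 fell and 30 did not pass (median 0.52); of all genes 3.16% rose and 1.96% fell, and of those with a symbol 432 and 288 (median 0.19).

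How firmly these calls stood differed between the comparisons. Between wdr12 GFP+ and ebf3 GFP+ cells 19 of the 23 called genes passed under all of 16 other settings, which included leaving out each library in turn. The exceptions were slc2a1b, which did not pass without wdr12 GFP+ replicate 3, hk1 (2 of 2) without wdr12 GFP+ replicate 2, nt5c3a without wdr12 GFP+ replicate 3 or ebf3 GFP+ replicate 2, and HMOX1 (1 of 2), which passed in 1 of the 8 fits that leave out a library and did not when only those groups were fitted. Between wdr12 GFP+ and wdr12 GFP- cells 6 of 24 passed throughout, namely blvrb, lmo2, bcl11ab, ank1, ANK1 (2 of 2) and gypc. There 2 rose and 9 fell without wdr12 GFP- replicate 1, and 6 rose and 4 fell without replicate 2.

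Between wdr12 GFP- and ebf3 GFP+ cells 3 of the 15 called genes, blvrb, rhag and aqp1a.1, passed under all of these settings. The count of genes that rose was 3 without wdr12 GFP- replicate 2, 5 without ebf3 GFP+ replicate 1 and 7 without ebf3 GFP+ replicate 2, and 0 fell without either wdr12 GFP- library. KEL and epor lost their call with wdr12 GFP- replicate 2 left out and under no other setting, and klfd also without ebf3 GFP+ replicate 1. Of the rest, lmo2, ca2 and nt5c3a did not pass without wdr12 GFP- replicate 2 or ebf3 GFP+ replicate 1 or 2, bcl11ab without either wdr12 GFP- library, alas1, rhd and gfi1b without either wdr12 GFP- library or ebf3 GFP+ replicate 1 or 2, and tfr1a and HMOX2 (2 of 2) without any 1 of the 5 libraries compared. Further losses were gfi1b in DESeq2 and with a robust spread, tfr1a with a replicate block and with no filter on low counts, and HMOX2 (2 of 2) with a replicate block. The log2 fold changes of all 15 kept their sign throughout.

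In wdr12 GFP- against ebf3 GFP+ cells 3.16% of all genes tested rose and 1.96% fell. In haem synthesis, 1 of 5 genes rose there and 0 fell. It was alas1, the form of the first enzyme that all tissues use, with 44.4 to 56.6 CPM in wdr12 GFP+ cells, 85.9 and 116 CPM in wdr12 GFP- cells and 31.7 to 51.9 CPM in ebf3 GFP+ cells (log2 fold change of wdr12 GFP- over ebf3 GFP+ cells 1.38 ± 0.32, adjusted p = 0.0212). Other enzymes of the pathway differed from alas1 in pattern and also from one another. alad averaged 115 ± 20.4 CPM in wdr12 GFP+ cells and 46.4 ± 2.52 CPM in ebf3 GFP+ cells (SD, n = 3 each; adjusted p = 0.0026), and stood at 31.8 and 48.3 CPM in wdr12 GFP- cells. hmbsa was also higher in wdr12 GFP+ than in ebf3 GFP+ cells, by 2.93 ± 0.69 on the log2 scale (adjusted p = 0.00542), and ppox was lower, at -1.32 ± 0.34 (adjusted p = 0.0101). Neither alad nor hmbsa nor ppox passed in wdr12 GFP- against ebf3 GFP+ cells.

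In haem and iron handling, 3 of 6 genes rose in wdr12 GFP- against ebf3 GFP+ cells and 0 fell. The shares over all genes tested were 3.16% and 1.96%. blvrb, a biliverdin reductase abundant in mammalian red cells, had 13.3, 25.7 and 36.7 CPM in wdr12 GFP+ cells, 118 and 387 CPM in wdr12 GFP- cells and 21.9, 23.1 and 12.8 CPM in ebf3 GFP+ cells. It fell in wdr12 GFP+ against wdr12 GFP- cells (log2 fold change -3.33 ± 0.49, adjusted p = 0.000274) and rose in wdr12 GFP- against ebf3 GFP+ cells (3.71 ± 0.50, adjusted p = 0.00101). tfr1a, a transferrin receptor through which cells take up iron, and HMOX2 (2 of 2), a haem oxygenase that breaks haem down, also rose in wdr12 GFP- against ebf3 GFP+ cells, by 1.93 ± 0.53 (adjusted p = 0.0494) and 1.29 ± 0.35 (adjusted p = 0.0434) on the log2 scale. HMOX1 (1 of 2) and steap3, an iron reductase, were instead higher in wdr12 GFP+ than in ebf3 GFP+ cells, by log2 fold changes of 1.45 ± 0.49 (adjusted p = 0.0432) and 2.34 ± 0.47 (adjusted p = 0.00179).

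Of 9 erythroid transcription factors 3 rose and 1 fell in wdr12 GFP- against ebf3 GFP+ cells. The shares over all genes tested were 3.16% and 1.96%. klfd, a Kruppel-like factor that in zebrafish acts in red cell maturation, had 0, 1.27 and 1.801 CPM in wdr12 GFP+ cells, 9.79 and 45.5 CPM in wdr12 GFP- cells and 1.24, 2.81 and 0.166 CPM in ebf3 GFP+ cells (log2 fold change of wdr12 GFP- over ebf3 GFP+ cells 4.26 ± 1.03, adjusted p = 0.0259). lmo2, a bridging protein of GATA-1 complexes that endothelium also expresses, had 4.12, 7.73 and 12.995 CPM in wdr12 GFP+ cells, 44.6 and 100.5 CPM in wdr12 GFP- cells and 14.2, 14.04 and 27.1 CPM in ebf3 GFP+ cells (1.98 ± 0.48, adjusted p = 0.0269). gfi1b, a repressor shared by red cells and thrombocytes, had 8.05 and 25.8 CPM in wdr12 GFP- cells and at most 3.12 CPM in any other library (5.48 ± 1.44, adjusted p = 0.0386). The gene that fell was bcl11ab, one of a pair of genes related to the mammalian globin repressor BCL11A that neurons also express, with a log2 fold change of -1.95 ± 0.36 (adjusted p = 0.00639). Its pair bcl11aa and MAFG (1 of 2) fell in wdr12 GFP+ against ebf3 GFP+ cells, with log2 fold changes of -1.76 ± 0.25 (adjusted p = 0.000133) and -1.78 ± 0.42 (adjusted p = 0.00538). The gene given here by its clone name, si:ch211-160f23.5, was matched to the list by another name on the authors' sheets. It was the 1 of the 9 that rose in wdr12 GFP+ against ebf3 GFP+ cells, with a log2 fold change of 4.07 ± 0.83 (adjusted p = 0.00193). Of all genes tested 12.7% rose and 10.8% fell there.

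In wdr12 GFP- against ebf3 GFP+ cells 1 of the 6 genes of the erythropoietin list rose and 0 fell. The shares over all genes tested were 3.16% and 1.96%. The gene that rose was epor, the receptor for erythropoietin, a hormone receptor that keeps red cell precursors alive. It had 3.68, 1.04 and 0.772 CPM in wdr12 GFP+ cells, 26.8 and 52.0 CPM in wdr12 GFP- cells and 1.79, 2.41 and 0 CPM in ebf3 GFP+ cells. The log2 fold change was -4.40 ± 0.84 in wdr12 GFP+ against wdr12 GFP- cells (adjusted p = 0.0018) and 4.76 ± 0.87 in wdr12 GFP- against ebf3 GFP+ cells (adjusted p = 0.00548). In wdr12 GFP+ against ebf3 GFP+ cells it was 0.36 (adjusted p = 0.818). In that comparison the kinase gene pim1 rose by 2.75 ± 0.53 (adjusted p = 0.00119), and map1lc3b, of the autophagy machinery, fell with a log2 fold change of -1.32 ± 0.32 (adjusted p = 0.00627).

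Among 12 membrane and cytoskeleton genes 3 rose and 1 fell in wdr12 GFP- against ebf3 GFP+ cells. The shares over all genes tested were 3.16% and 1.96%. KEL, a blood group membrane protein named here after its values were seen, had 0.759, 2.999 and 0 CPM in wdr12 GFP+ cells, 15.01 and 53.2 CPM in wdr12 GFP- cells and 0.689, 0.669 and 1.66 CPM in ebf3 GFP+ cells (log2 fold change of wdr12 GFP- over ebf3 GFP+ cells 5.09 ± 0.97, adjusted p = 0.00705). The other genes that rose, rhag and aqp1a.1, were high in both wdr12 sorts. rhag, the Rh-associated ammonia channel, had 7.69, 44.99 and 45.7 CPM in wdr12 GFP+ cells, 27.4 and 54.4 CPM in wdr12 GFP- cells and 3.17, 2.27 and 3.33 CPM in ebf3 GFP+ cells. The water channel gene aqp1a.1 had 222, 81.1 and 228 CPM in wdr12 GFP+ cells, 212 and 461 CPM in wdr12 GFP- cells and 9.92, 21.5 and 35.6 CPM in ebf3 GFP+ cells. Each exceeded ebf3 GFP+ cells in wdr12 GFP+ cells as well, by log2 fold changes of 3.48 ± 0.58 (adjusted p = 0.000447) and 2.99 ± 0.49 (adjusted p = 0.000391), and neither passed between the 2 wdr12 sorts (adjusted p = 0.787 and 0.234). The gene that fell was rhd, an Rh blood group protein, at -1.74 ± 0.41 (adjusted p = 0.0229). In wdr12 GFP+ against ebf3 GFP+ cells 4 of the 12 rose and 4 fell, where 12.7% and 10.8% of all genes tested did. Beside rhag and aqp1a.1, ank1, an ankyrin, rose by 2.28 ± 0.32 (adjusted p = 0.000114). The glucose transporter gene slc2a1b rose by 2.47 ± 0.58 (adjusted p = 0.00528). ANK1 (2 of 2), gypc, rhd and bcam fell there, with log2 fold changes between -2.42 ± 0.51 for gypc, a glycophorin, and -1.20 ± 0.28 for bcam.

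Of 8 red cell enzymes 2 rose in wdr12 GFP- against ebf3 GFP+ cells and 0 fell: ca2, a cytosolic carbonic anhydrase, by 1.66 ± 0.41 (adjusted p = 0.027) and nt5c3a, a nucleotidase that clears pyrimidine nucleotides in mammalian red cells, by 2.32 ± 0.51 (adjusted p = 0.015) on the log2 scale. Against ebf3 GFP+ cells, wdr12 GFP+ cells had 4 of the 8 higher and 1 lower: gpx1b, txnrd1 and nt5c3a rose by 2.64 ± 0.55, 1.71 ± 0.32 and 1.71 ± 0.47, hk1 (2 of 2) by 2.39 ± 0.67, and HK1 (1 of 2) fell with a log2 fold change of -1.19 ± 0.33. Over all genes tested 3.16% rose and 1.96% fell in the first of these comparisons, and 12.7% and 10.8% in the second. Among the 4658 genes with a symbol 432 rose and 288 fell in the first, and 1766 and 1483 in the second. The only globin outside the set to carry a symbol, CYGB1, a cytoglobin of many tissues, was highest in ebf3 GFP+ cells. It had 1.19, 5.77 and 3.60 CPM in wdr12 GFP+ cells, 9.57 and 15.97 CPM in wdr12 GFP- cells and 20.4, 27.6 and 24.6 CPM in ebf3 GFP+ cells. Its log2 fold change was -2.78 ± 0.52 in wdr12 GFP+ against ebf3 GFP+ cells (adjusted p = 0.001) and -0.92 ± 0.55 in wdr12 GFP- against ebf3 GFP+ cells (adjusted p = 0.422). Between the wdr12 sorts it fell, as the 10 genes did, with a log2 fold change of -1.86 ± 0.55 in wdr12 GFP+ against wdr12 GFP- cells (adjusted p = 0.0256), a call lost without either wdr12 GFP- library and when only those 2 groups were fitted.

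**Figure D4:**
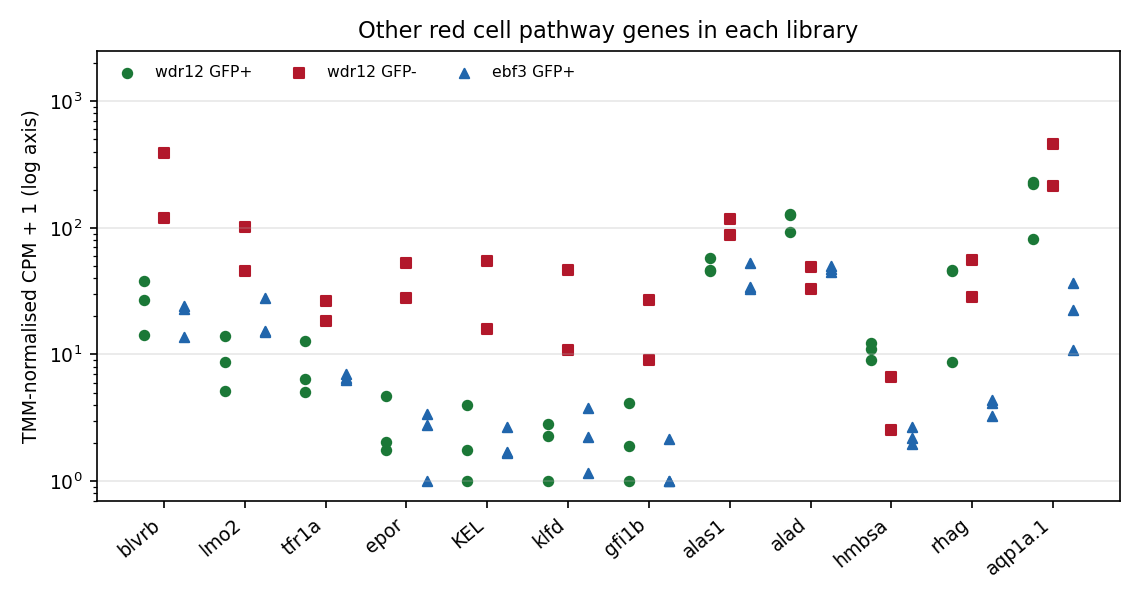
TMM-normalised CPM plus 1 (log axis) of 12 other red cell pathway genes in each library, with 1 symbol per library. From blvrb to alas1 both wdr12 GFP- libraries lie above the other 6; rhag and aqp1a.1 are high in both wdr12 sorts, and alad is highest in wdr12 GFP+ cells.

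The genes whose pattern over the 8 libraries was most like that of the set were found by the root mean square difference of centred log2(CPM + 1) from the mean profile of the 10 genes. The 10 nearest other genes differed from it by 0.65 to 1.12, against 0.42 to 0.80 for the 10 genes themselves and a median of 2.81 over all other genes. In order they were nt5c2l1, ENSORLG00000013113 without a symbol, nmt1b, rfesd, chp2, ENSORLG00000005799 without a symbol, RNF151, TRIM29 (14 of 42), RTP5 and plac8l1. The nearest, nt5c2l1, had 3.03, 4.04 and 14.5 CPM in wdr12 GFP+ cells, 190 and 1131 CPM in wdr12 GFP- cells and 10.3, 17.7 and 15.5 CPM in ebf3 GFP+ cells. All 10 were on the same 2 sheets of the authors as the globin and erythroid genes, and the likeness is a description.

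Markers of other blood and vessel cells, and of neurons, oligodendrocytes, radial glia and astroglia, stood beside the globins in several patterns. These markers, too, were found only where the authors had listed them as changed, so their calls are descriptions. Of 21 thrombocyte symbols 3 genes were found. GP9, a platelet membrane glycoprotein, had 0.108, 1.15 and 0 CPM in wdr12 GFP+ cells, 10.01 and 25.8 CPM in wdr12 GFP- cells and 0.689, 0.802 and 2.33 CPM in ebf3 GFP+ cells. The gene tubb1, a tubulin of platelets, had 6.96 and 8.41 CPM in wdr12 GFP- cells and 0 in 4 of the other 6 libraries. It did not pass edgeR's quasi-likelihood test between wdr12 GFP- and wdr12 GFP+ cells (adjusted p = 0.111) or ebf3 GFP+ cells (adjusted p = 0.254). In contrast, thbs1b was highest in wdr12 GFP+ cells, at 19.6 to 41.0 CPM. The summed level of the 3 was 19.6 to 41.1 CPM in wdr12 GFP+ cells, 23.3 and 37.6 CPM in wdr12 GFP- cells and 8.83 to 10.1 CPM in ebf3 GFP+ cells.

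The 15 leukocyte and microglia genes, led by apoeb, cd74a and cd74b, summed to 1044 to 1761 CPM in wdr12 GFP+ cells, 1099 and 1216 CPM in wdr12 GFP- cells and 149 to 339 CPM in ebf3 GFP+ cells. Of this, apoeb alone had 426 to 933 CPM in wdr12 GFP+ cells, and 245 and 252 CPM in wdr12 GFP- cells. By contrast, cd74a had 155 to 308 CPM, and 320 and 339 CPM. In wdr12 GFP+ against wdr12 GFP- cells 1 of the 15, apoeb, rose, 0 fell and 14 did not pass. Of all genes tested 9.92% rose and 9.84% fell in that comparison. The 9 plasma protein genes, led by apoa2 and tfa, summed to 31043 to 130180.3 CPM in wdr12 GFP+ cells. Their sums were 20730 and 18888 CPM in wdr12 GFP- cells and 700.4 to 3316 CPM in ebf3 GFP+ cells. In wdr12 GFP+ against wdr12 GFP- cells 3 of the 9 rose, 1, serping1, fell and 5 did not pass. serping1 had 0.867 to 2.08 CPM in wdr12 GFP+ cells, and 19.1 and 8.07 CPM in wdr12 GFP- cells. The 8 endothelial and mural genes, led by notch3, cldn5a and kcnj8, summed to 464 to 672 CPM in wdr12 GFP+ cells, 152 and 163 CPM in wdr12 GFP- cells and 132 to 145 CPM in ebf3 GFP+ cells. In wdr12 GFP+ cells notch3 had 188 to 230 CPM and cldn5a 86.8 to 218 CPM. In wdr12 GFP- cells notch3 had 28.5 and 24.9 CPM, and cldn5a 6.09 and 10.6 CPM. Of the 8 genes 3 rose, 1 fell and 4 did not pass in wdr12 GFP+ against wdr12 GFP- cells. Which cells the RNA of these genes came from was not tested. The endothelial genes cdh5 and egfl7, named after their values were seen, did not follow the sum of their list. cdh5, a junction cadherin, had 3.79, 4.27 and 14.3 CPM in wdr12 GFP+ cells, 50.7 and 39.3 CPM in wdr12 GFP- cells and 78.3, 84.7 and 75.7 CPM in ebf3 GFP+ cells (log2 fold change of wdr12 GFP+ over wdr12 GFP- cells -2.60 ± 0.47, adjusted p = 0.00116). egfl7 had 7.91 to 17.6 CPM in wdr12 GFP+ cells, 19.8 and 30.2 CPM in wdr12 GFP- cells and 3.58 to 6.29 CPM in ebf3 GFP+ cells. Between the wdr12 sorts egfl7 did not pass (log2 fold change of wdr12 GFP+ over wdr12 GFP- cells -0.80 ± 0.47, adjusted p = 0.283). None of these 3 lists held a gene at 0 in a wdr12 library. Between the wdr12 GFP- libraries the sums of these 3 lists differed little. Replicate 2 over replicate 1 was 1.11 for the leukocyte and microglia genes, 0.911 for the plasma protein genes and 1.07 for the endothelial and mural genes. The summed CPM of the 6 globins differed 4.802 times.

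Oligodendrocyte and neuron markers also differed between the wdr12 sorts, while the sums of radial glia and astroglia markers overlapped. The 9 radial glia and astroglia genes summed to 5872 to 13178 CPM in wdr12 GFP+ cells and 8259 and 8417 CPM in wdr12 GFP- cells. In wdr12 GFP+ against wdr12 GFP- cells 1 of these 9 rose, 1 fell and 7 did not pass. The 8 oligodendrocyte genes summed to 704 to 1353 CPM in wdr12 GFP+ cells, 4546 and 3157 CPM in wdr12 GFP- cells and 199 to 800 CPM in ebf3 GFP+ cells, so that both wdr12 GFP- libraries were highest, as for the globins. The myelin genes plp1b and mbpa carried most of that sum in wdr12 GFP- cells. The oligodendrocyte gene cnp went the other way, with 157 to 249 CPM in wdr12 GFP+ cells, 23.7 and 28.5 CPM in wdr12 GFP- cells and 87.9 to 116 CPM in ebf3 GFP+ cells. plp1b had 217, 286 and 603 CPM in wdr12 GFP+ cells, 3422 and 1755 CPM in wdr12 GFP- cells and 37.8, 23.8 and 346 CPM in ebf3 GFP+ cells, and mbpa had 61.9 to 441 CPM, 854 and 1207 CPM, and 67.9 to 290 CPM in the same groups. Of the 8 genes 1, cnp, rose, 2, plp1b and mbpa, fell and 5 did not pass in wdr12 GFP+ against wdr12 GFP- cells. In wdr12 GFP- against ebf3 GFP+ cells 6 rose and 1, cnp, fell. Over all genes tested 9.92% rose and 9.84% fell in the first comparison, and 3.16% and 1.96% in the second. Of the 4658 genes with a symbol 1394 rose and 1429 fell in the first, and 432 and 288 in the second. The calls of plp1b and mbpa in the first of these comparisons were both lost without wdr12 GFP- replicate 1, wdr12 GFP+ replicate 1 or wdr12 GFP+ replicate 2 and with a robust spread, and that of mbpa also without wdr12 GFP- replicate 2 and in DESeq2. In the second, 1 rose without wdr12 GFP- replicate 1, and 3 rose without wdr12 GFP- replicate 2 or ebf3 GFP+ replicate 1 and 4 without ebf3 GFP+ replicate 2. In summed CPM, wdr12 GFP- replicate 2 was 0.694 times replicate 1, opposite in order to the globins. Neuron genes gave 18 of 19 that fell and 0 that rose in wdr12 GFP+ against wdr12 GFP- cells, with 11 that fell without wdr12 GFP- replicate 2. Of all genes tested 9.84% fell in wdr12 GFP+ against wdr12 GFP- cells, and of the 4658 with a symbol 1429 fell. The neuron gene sums were 1692 to 2808 CPM in wdr12 GFP+ cells, 4377 and 5384 CPM in wdr12 GFP- cells and 5084 to 6674 CPM in ebf3 GFP+ cells.

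Within each GFP+ sort, the library with the most plasma protein RNA also had the most globin RNA. In wdr12 GFP+ replicates 1, 2 and 3 the plasma protein sums were 31043, 77072 and 130180.3 CPM beside globin shares of 0.0115%, 0.0513% and 0.0844%. In ebf3 GFP+ replicates 1, 2 and 3 the sums were 769, 700.4 and 3316 CPM beside shares of 0.0504%, 0.0383% and 0.117%. The order of the libraries was the same for both measures in each sort, over 3 libraries. Single genes did not all have it. In wdr12 GFP+ cells serping1, C3 (3 of 4) and fetub did not, and in ebf3 GFP+ cells apoa2, among others, did not. This order was not particular to plasma protein genes. The oligodendrocyte sums shared it, at 704, 732 and 1353 CPM in wdr12 GFP+ and 270, 199 and 800 CPM in ebf3 GFP+ replicates 1, 2 and 3. Of that list plp1b, mbpa and mpz had this order in both sorts. In wdr12 GFP+ cells plp1a, mag, cnp, olig2 and cldn19 did not, with cnp at 249, 226 and 157 CPM in replicates 1, 2 and 3. The leukocyte and microglia sums did not share the order in ebf3 GFP+ cells, at 149, 175 and 339 CPM. The part of other cells or of plasma protein RNA in the globin levels was not tested. Between the sorts the order of the plasma protein sums did not hold, since wdr12 GFP- cells had the highest globin share with a plasma protein sum below that of each wdr12 GFP+ library.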

How the data were processed

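Per the labels' protocols, tecta were dissociated, cells sorted by GFP, and single-end libraries made with the TotalScript kit and sequenced on a HiSeq 1000. Per the submitters' processing notes, CASAVA 1.8.2, FastQC 0.10.1, TopHat2 and DESeq were used; no source used here gives the counting program, its use of strand, the genome build or the annotation. The deposited tables hold, per the file headers, whole read counts per gene and library, and the authors' log2 fold change and p-value for each comparison. The lowest gene total was 11, so rarer genes had been removed. The 3 tables joined to 17142 genes, of which 185 lacked counts in some library and were left out. Symbols come from the authors' sheets, for 4662 of 5043 listed genes.

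One edgeR 4.0.16 fit (R 4.3.3) took the counts of all 8 libraries (TMM, filterByExpr, quasi-likelihood F test, two-sided, no covariate), with Benjamini-Hochberg adjustment over 15640 genes and calls at an adjusted p under 0.05; rows passing the filter include all 10 genes. The common coefficient of biological variation was 0.514. SEs are the log2 fold change over the square root of F, and 95% intervals use the fit's degrees of freedom. Shares have exact Clopper-Pearson intervals. DESeq2 1.42.0 and 15 other settings were alternatives. Steps were tested on simulated data. Replicates were not copies of one another: the chi-square per degree of freedom between them was 17.5 to 132.

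The 10 genes, the gene lists and the rule for naming genes were chosen with earlier results of these data known. Of each pathway list, genes called in a comparison with ebf3 GFP+ cells were open to naming, up to 8 by adjusted p, and of each marker list the 3 with the highest mean CPM. Sequences were not used here.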

Additional observations from a re-analysis of the deposited data

How the results depend on the processing

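Over 16 other settings the 10 genes kept the sign of their log2 fold change in both comparisons with wdr12 GFP- cells. With both wdr12 GFP- libraries kept, all 10 stayed called against ebf3 GFP+ cells. Without wdr12 GFP- replicate 2 the log2 fold change of GB-BETA4 there was 4.08. All 10 genes were on the authors' lists for both comparisons, so these results follow from their choice and support nothing. In wdr12 GFP+ against ebf3 GFP+ cells, where none was called, some signs turned: the lower-count GB gene to -0.28 with a replicate block, -0.11 without ebf3 GFP+ replicate 2 and -0.76 without wdr12 GFP+ replicate 3; the higher-count GB gene to 0.42 without ebf3 GFP+ replicate 3 and 0.19 without wdr12 GFP+ replicate 1; GATA-1 to 0.39 without ebf3 GFP+ replicate 3; the lower-count GB-ALPHA1 gene to 0.03 without wdr12 GFP+ replicate 1. With 1 library left out, the lower-count GB gene ran from -0.76 to 0.54, the higher-count GB gene from -0.98 to 0.42, GATA-1 from -0.94 to 0.39 and the lower-count GB-ALPHA1 gene from -1.26 to 0.03, and 0 to 1 of the 10 was called.

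Correlations of same-numbered deviations lay between -0.223 and 0.221 and showed no pairing of libraries by replicate number. In groups of 2 or 3 libraries they cannot exclude it. With the replicate numbers as a block 1 of the 10 was called between the GFP+ sorts, GB-BETA4 at -1.94 (adjusted p = 0.031), and 819 of all genes rose in wdr12 GFP- against ebf3 GFP+ cells. That count, 494 higher and 307 lower, was 793 and 701 in DESeq2 and 852 and 753 when only those groups were fitted; leaving out 1 library gave 133 to 753 and 25 to 576. In wdr12 GFP+ against wdr12 GFP- cells, 1551 higher and 1539 lower, it gave 557 to 1752 and 785 to 1832, the lowest without a wdr12 GFP- library. The lowest numbers of wdr12 GFP- against ebf3 GFP+ cells, 133 without replicate 2 and 25 without replicate 1, came from leaving out a wdr12 GFP- library as well. Of the 45 pathway genes, 16 rose and 5 fell in wdr12 GFP- against ebf3 GFP+ cells when only those groups were fitted, 15 rose and 4 fell in DESeq2, and leaving out 1 library gave 3 to 15 that rose and 0 to 3 that fell. For wdr12 GFP+ against wdr12 GFP- cells it gave 2 to 10 that rose and 4 to 16 that fell. Values not called turned sign for rhag in wdr12 GFP+ against wdr12 GFP- cells, to 0.25 without wdr12 GFP- replicate 2 and 0.09 without wdr12 GFP+ replicate 1 (range -0.74 to 0.25), and for epor in wdr12 GFP+ against ebf3 GFP+ cells, to -0.18 without ebf3 GFP+ replicate 3 and -0.68 without wdr12 GFP+ replicate 1 (range -0.68 to 0.94). The cause of these shifts was not tested. With 2 wdr12 GFP- libraries, and at most 30 counts of GB-BETA4 and 17 of HBZ in each of the other 6, folds of single genes are loose.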
